A study of Mus musculus with 12 samples.

Results

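Epithelial cells of the proximal tubule retrieve filtered proteins through an apical endocytic receptor complex and carry a dense brush border of microvilli. In the receptor complex, megalin (Lrp2) and cubilin (Cubn) bind filtered ligands, amnionless (Amn) carries cubilin to the membrane, and the adaptor disabled-2 (Dab2) links megalin to clathrin. In the brush border, villin (Vil1) bundles the actin of microvilli, and membrane peptidases cut peptides in the tubule lumen. These peptidases are neprilysin (Mme), γ-glutamyltransferase 1 (Ggt1, which cleaves glutathione), aminopeptidase N (Anpep) and the α and β subunits of meprin (Mep1a and Mep1b). Proximal tubule cells are known to lose much of this apparatus after kidney injury.

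These 10 genes were chosen by their function and found by name in both deposited tables, which list 54532 genes each. All 10 passed the filter on low values, a mean of at least 0.5 FPKM (fragments per kilobase of gene, scaled to sequencing depth) over the 6 libraries of a table. RNA was sequenced from 12 kidney samples of C57BL/6 mice in 4 groups of 3. Each sample is called a kidney below, though no source used here says that the UIRI samples are separate animals. In unilateral ureteral obstruction (UUO), in which the ureter of one kidney is ligated, β-catenin knockout (KO) mice were compared with wild-type (WT) mice. In unilateral ischemia-reperfusion injury (UIRI), in which the pedicle of one kidney is clipped and released, CD44 KO mice were compared with their own WT mice. All 4 groups had undergone surgery, so no level here is that of an uninjured kidney. The β-catenin KO mice carry floxed Ctnnb1 alleles and a Cre transgene under the Ksp-cadherin promoter, which is known to be active in the collecting duct, the loop of Henle and the distal tubule. By the study's own staining, β-catenin was also lost from most proximal tubules of these mice, while its discussion speaks of loss there to some extent. That discussion also holds that mice with the Ksp-Cre transgene would be better WT controls. The Cre transgene and the loss of β-catenin therefore cannot be told apart in this comparison. The methods name different suppliers for the KO mice and for C57BL/6 mice. The study's methods describe male mice and, for UIRI, removal of the other kidney the day before collection, but they do not mention the CD44 KO mice. How the CD44 allele was made and how long the ureter was ligated are not given in the sources used here.

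Each library held between 15940405 and 20737443 reads assigned to genes. The targeted genes gave a limited check of the labels, because a gene's value sums all exons and the deleted part was not measured on its own. Ctnnb1 was at 84.7, 71.4 and 71.7 FPKM in β-catenin KO kidneys, against 91.2, 86.7 and 98.5 FPKM in WT kidneys, and the groups did not overlap (log2 fold change -0.28, standard error 0.13, adjusted p = 0.189 from limma). Cd44 was at 19.0, 11.97 and 13.9 FPKM in kidneys labelled CD44 KO, against 19.9, 16.3 and 17.8 FPKM in WT kidneys, and these groups overlapped (log2 fold change -0.27, standard error 0.17, adjusted p = 0.339). The Cd44 level therefore did not separate the kidneys labelled CD44 KO from their WT kidneys, and every direction given for that comparison rests on the label. The libraries of each table were scaled together and apart from the other table, so tests were run within a table and levels set across tables are a description.

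Promoter sequences are shown for Cubn, Mep1a and Ggt1, because the letters CTTTGAT, a form of the site that the β-catenin partners TCF and LEF are known to bind, occurred in a RefSeq start window of each. Of the 10 genes, 9 had 15 windows of 250 bases before to 50 bases after a start site (RefSeq, GRCm38.p6). Both strands were searched for CTTTGAT and for its variant CTTTGAA. They were also searched for GTTAAT, part of the site of HNF1, and for CAAAGTC, the core of an HNF4 site. The reverse complements of CTTTGAT and CTTTGAA share the letters CAAAG with the HNF4 core, and no matches overlapped in the sequences printed here. The sequences run 5′ to 3′ on the strand of the gene and end at the base before the start site, and capitals mark CTTTGAT or CTTTGAA or their reverse complements. The Cubn stretch is chr2:13491877-13492126 (minus strand), that of Mep1a is chr17:43502774-43503023 (minus strand), and that of Ggt1 is chr10:75568412-75568661 (plus strand).
Cubn: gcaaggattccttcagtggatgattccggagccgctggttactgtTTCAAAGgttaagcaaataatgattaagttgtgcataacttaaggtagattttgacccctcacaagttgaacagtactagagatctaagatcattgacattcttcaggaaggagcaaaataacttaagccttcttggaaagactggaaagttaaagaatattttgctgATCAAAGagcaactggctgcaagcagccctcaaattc
Mep1a: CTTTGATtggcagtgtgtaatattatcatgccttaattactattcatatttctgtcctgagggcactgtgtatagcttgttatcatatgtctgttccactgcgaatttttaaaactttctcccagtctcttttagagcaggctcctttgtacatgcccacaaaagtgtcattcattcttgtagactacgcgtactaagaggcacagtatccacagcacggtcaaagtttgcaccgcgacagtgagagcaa
Ggt1: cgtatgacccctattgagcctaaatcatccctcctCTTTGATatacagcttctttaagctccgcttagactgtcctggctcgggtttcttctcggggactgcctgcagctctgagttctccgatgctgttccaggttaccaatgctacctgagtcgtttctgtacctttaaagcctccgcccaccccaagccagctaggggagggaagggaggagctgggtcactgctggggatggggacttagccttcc

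The letters CTTTGAT stood 37 bases before the start site of Cubn, on the opposite strand, 250 bases before that of Mep1a and 215 bases before this start of Ggt1. They occurred in 3 of the 15 windows, and in 3.73% of all 32851 RefSeq windows of this length. CTTTGAA occurred in 2 of the 15, in Cubn and in another Ggt1 window, and in 5.14% of all windows. GTTAAT occurred in 1 Dab2 window (7.10% of all windows) and CAAAGTC in 1 Ggt1 window (4.44%). The other 9 windows, among them those of Lrp2, Amn, Vil1, Mme and Anpep, held none of these letters. Such matches describe letters and say nothing of binding in these kidneys.

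After UUO, 7 of the 10 genes had every β-catenin KO kidney above every WT kidney, and 4 of them passed the test (Lrp2, Amn, Mep1a and Mep1b). The median log2 fold change of (FPKM + 1) was 0.85 over the 10 genes, beside 0.01 over all 16166 genes tested. Mep1b rose most, to 4.08 times the WT mean, while Mme and Dab2 had the smallest differences. Of all genes tested, 6.21% were called higher and 4.36% lower at an adjusted p under 0.05, and 19.6% had every KO value above every WT value. Of the 10, 0 were called lower and 0 had their KO kidneys all below their WT kidneys, beside 15.9% of all genes tested with every KO value below every WT value.

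Among the receptor genes, Lrp2, the large endocytic receptor, was at 53.6, 49.5 and 59.9 FPKM in β-catenin KO kidneys, against 27.1, 22.8 and 37.2 FPKM in WT kidneys. It rose in every KO kidney above every WT kidney (log2 fold change 0.91, standard error 0.19, adjusted p = 0.0276 from limma). Cubn, its partner receptor, was at 19.8, 17.0 and 18.7 FPKM in KO kidneys, against 9.22, 8.24 and 16.2 FPKM in WT kidneys. Its groups did not overlap, WT replicate 3 lay near the KO kidneys, and the difference did not pass the test (0.73, 95% interval 0.19 to 1.27, adjusted p = 0.0850). Without WT replicate 3 its adjusted p was 0.0203. Amn, which cubilin needs to reach the membrane, was at 120.0, 83.9 and 60.7 FPKM in KO kidneys, against 42.5, 42.7 and 47.6 FPKM in WT kidneys. It passed the threshold narrowly (0.93, standard error 0.23, adjusted p = 0.0497), and the KO kidneys were spread far more widely than the WT kidneys. Dab2, the adaptor, was at 62.9, 71.1 and 66.6 FPKM in KO kidneys, against 60.4, 54.2 and 67.3 FPKM in WT kidneys. Its groups overlapped and its log2 fold change was 0.14 (95% interval -0.15 to 0.44, adjusted p = 0.485), which turned to -0.072 when every library was rescaled to the same FPKM total.

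Vil1, the actin bundler of the microvilli, was at 58.5, 65.7 and 41.0 FPKM in β-catenin KO kidneys, against 35.4, 37.0 and 48.7 FPKM in WT kidneys. KO replicate 3 lay below WT replicate 3, and the log2 fold change of 0.43 did not pass the test (95% interval -0.06 to 0.91, adjusted p = 0.215).

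Among the membrane peptidases, Mep1b, the meprin subunit that anchors the enzyme in the membrane, was at 13.04, 17.0 and 12.6 FPKM in β-catenin KO kidneys, against 4.64, 2.71 and 3.12 FPKM in WT kidneys. These values rest on 513, 618 and 513 reads in KO kidneys, against 206, 116 and 121 reads in WT kidneys. The gap between the groups was larger than the spread within either (log2 fold change 1.77, standard error 0.19, adjusted p = 0.00814 from limma). Mep1a, the meprin α subunit, was at 257, 249 and 220.1 FPKM in KO kidneys, against 123, 117 and 135 FPKM in WT kidneys. Its KO kidneys all lay well above its WT kidneys (0.94, standard error 0.13, adjusted p = 0.0129). Ggt1 was at 179.5, 119 and 87.5 FPKM in KO kidneys, against 48.5, 59.7 and 74.2 FPKM in WT kidneys. The groups did not overlap, but the KO kidneys were widely spread and the difference did not pass the test (1.03, 95% interval 0.38 to 1.68, adjusted p = 0.0571). Anpep was at 30.7, 33.5 and 18.3 FPKM in KO kidneys, against 15.4, 14.5 and 15.1 FPKM in WT kidneys. KO replicate 3 lay close to the tight WT group (0.79, 95% interval 0.28 to 1.30, adjusted p = 0.0587). Without that library the adjusted p was 0.0265 for Ggt1 and 0.00652 for Anpep. Mme was at 12.7, 9.66 and 16.0 FPKM in KO kidneys, against 14.0, 11.4 and 14.1 FPKM in WT kidneys. The KO values enclosed the WT values (-0.06, 95% interval -0.49 to 0.37, adjusted p = 0.860).

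**Figure D1:**
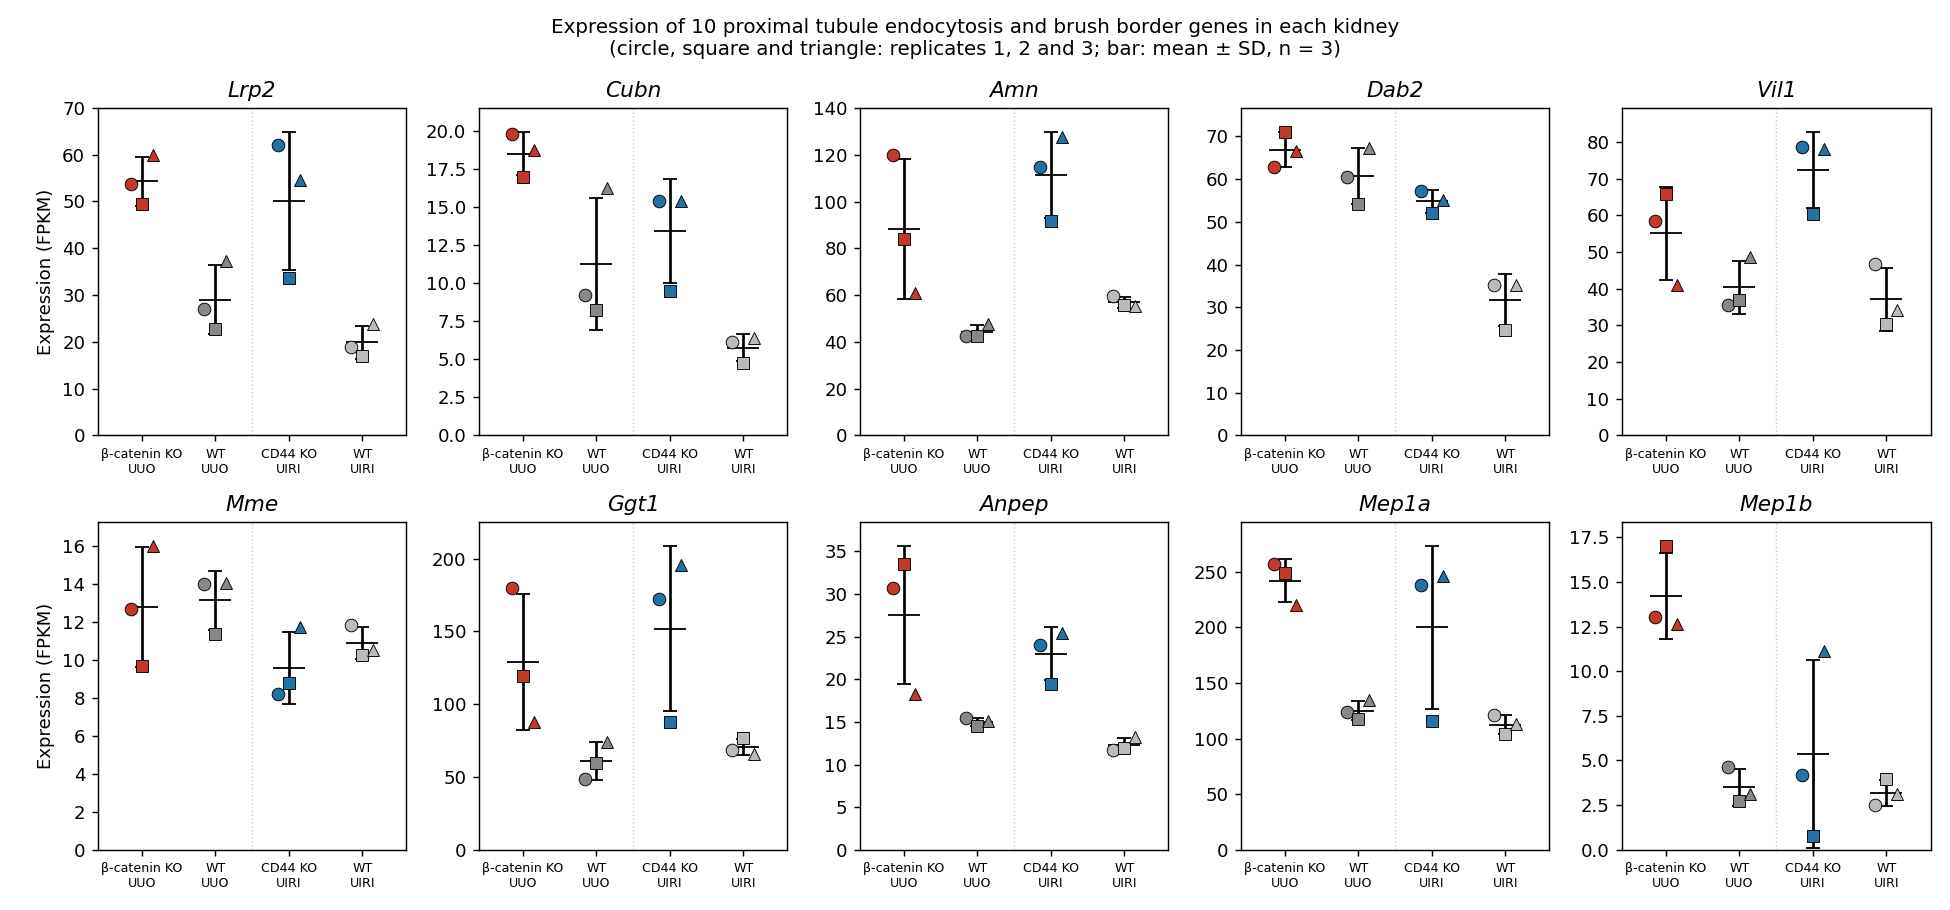
Expression of the 10 genes in FPKM (vertical axes, from 0) in each kidney of the 4 groups, with circle, square and triangle for replicates 1, 2 and 3 and a black bar for the mean ± SD (n = 3). Mep1b and Mep1a of the β-catenin KO kidneys stand clear of WT kidneys, Mme overlaps in both models, and the square (replicate 2) lies low among CD44 KO kidneys for 9 of the 10 genes.

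The number of calls in the UUO comparison changed with single libraries, for the 10 genes and over the whole table. Of the 10 genes, 2, 2 and 6 were called higher without β-catenin KO replicate 1, 2 or 3, where 345, 285 and 1631 of all genes tested were called higher. Without WT replicate 1, 2 or 3 the calls were 2, 1 and 4 of the 10, and 358, 130 and 520 of all genes tested. Mep1b was called in 6 of these 6 fits and Mep1a in 5 (adjusted p = 0.0565 without WT replicate 2), but Lrp2 in 2 and Amn in 1. The log2 fold changes stayed above 0 in these fits, between 0.75 and 1.09 for Lrp2, 0.68 and 1.16 for Amn, 0.90 and 1.01 for Mep1a and 1.65 and 1.95 for Mep1b. At an unadjusted p under 0.05, 7 of the 10 were higher and 0 lower, beside 17.0% of all genes tested higher. FPKM totals ran from 346240 to 420601 in β-catenin KO and from 304720 to 339519 in WT UUO libraries, so every KO total was the higher. Rescaling every library to the same FPKM total moved the median of all genes to -0.16. It moved the calls over all genes to 570 higher and 1178 lower, against 1004 and 705. Under it Mep1a and Mep1b were the 2 genes still called, and the median of the 10 was 0.64.

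After UIRI, 7 of the 10 genes had every kidney labelled CD44 KO above every WT kidney, and 6 of them passed the test: Lrp2, Cubn, Amn and Dab2 of the receptor complex, Vil1 and Anpep. The median log2 fold change was 0.90 over the 10 genes, beside 0.00 over all 16113 genes tested. Lrp2 and Cubn had means of 2.52 and 2.32 times the WT means. Of all genes tested, 4.02% were called higher and 2.19% lower, and 19.1% had every KO value above every WT value. The calls of the 6 genes, and nearly all calls of the whole table, were lost when a library other than CD44 KO replicate 2 was left out.

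Lrp2 was at 62.2, 33.6 and 54.5 FPKM in CD44 KO kidneys, against 18.9, 17.0 and 23.9 FPKM in WT kidneys. Every CD44 KO kidney lay above every WT kidney (log2 fold change 1.26, standard error 0.24, adjusted p = 0.0372 from limma). Cubn was at 15.4, 9.46 and 15.4 FPKM in CD44 KO kidneys, against 6.14, 4.74 and 6.40 FPKM in WT kidneys. As for Lrp2, replicate 2 was the lowest of the CD44 KO kidneys and still above the WT kidneys (1.07, standard error 0.20, adjusted p = 0.0362). Amn was at 115, 91.5 and 128 FPKM in CD44 KO kidneys, against 59.5, 55.9 and 55.1 FPKM in WT kidneys. Its WT kidneys differed little from each other (0.95, standard error 0.13, adjusted p = 0.0267). Dab2 was at 57.3, 51.9 and 55.2 FPKM in CD44 KO kidneys, against 35.2, 24.7 and 35.1 FPKM in WT kidneys. Its groups did not overlap either (0.79, standard error 0.15, adjusted p = 0.0362).

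Vil1 was at 78.6, 60.4 and 78.2 FPKM in CD44 KO kidneys, against 46.7, 30.3 and 34.2 FPKM in WT kidneys. Its groups did not overlap (log2 fold change 0.96, standard error 0.18, adjusted p = 0.0374 from limma). Anpep was at 24.0, 19.5 and 25.5 FPKM in CD44 KO kidneys, against 11.7, 11.9 and 13.2 FPKM in WT kidneys. It was the peptidase gene that passed the test after UIRI (0.85, standard error 0.12, adjusted p = 0.0267). Ggt1 was at 172, 88.1 and 195 FPKM in CD44 KO kidneys, against 68.5, 76.6 and 66.0 FPKM in WT kidneys. The groups did not overlap, with CD44 KO replicate 2 close to the WT kidneys (1.02, 95% interval 0.34 to 1.71, adjusted p = 0.0788). Mep1a was at 238, 116 and 246 FPKM in CD44 KO kidneys, against 121, 104 and 113 FPKM in WT kidneys. CD44 KO replicate 2 lay within the WT range and the test was not passed (0.75, 95% interval 0.07 to 1.43, adjusted p = 0.153). Without that library the adjusted p was 0.00339 for Ggt1 and 0.00447 for Mep1a.

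Mep1b was at 4.19, 0.795 and 11.1 FPKM in CD44 KO kidneys (166, 30 and 502 reads), against 2.501, 3.95 and 3.10 FPKM in WT kidneys (96, 166 and 140 reads). One CD44 KO kidney was below and one above all the WT kidneys, so no direction could be given (log2 fold change 0.23, 95% interval -1.27 to 1.72, adjusted p = 0.851 from limma). Mme was at 8.22, 8.76 and 11.8 FPKM in CD44 KO kidneys, against 11.8, 10.3 and 10.5 FPKM in WT kidneys. As after UUO its groups overlapped (-0.18, 95% interval -0.51 to 0.15, adjusted p = 0.440).

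**Figure D2:**
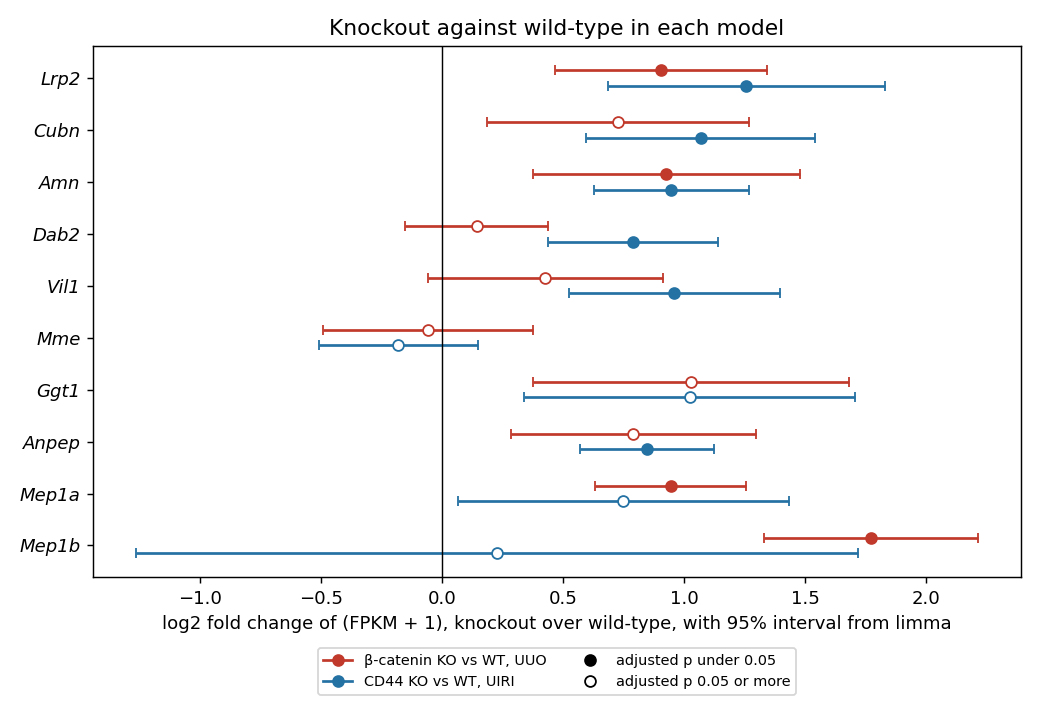
Log2 fold change of (FPKM + 1), knockout over wild-type, on the horizontal axis for each gene, with 95% intervals from limma (n = 3 against 3), in red for β-catenin KO against WT after UUO and in blue for CD44 KO against WT after UIRI. Filled points had an adjusted p under 0.05 (4 genes in red and 6 in blue), Mme lies at -0.06 and -0.18, and the red Dab2 point of 0.14 turned to -0.072 when libraries were rescaled to the same FPKM total.

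The calls after UIRI fell over the whole table when most single libraries were left out. Of the 10 genes, 0, 8 and 0 were called higher without CD44 KO replicate 1, 2 or 3, where 0, 1417 and 1 of all genes tested were called higher. Without WT replicate 1, 2 or 3 the calls were 0, 0 and 0 of the 10, and 3, 1 and 5 of all genes tested. The log2 fold changes of the 6 called genes had lowest values in these 6 fits of 1.082 for Lrp2, 0.95 for Cubn, 0.84 for Amn, 0.63 for Dab2, 0.83 for Vil1 and 0.77 for Anpep. At an unadjusted p under 0.05 these fits gave 7, 9 and 8 genes and 7, 7 and 7 genes, and the fit of all 6 libraries gave 8 higher and 0 lower, beside 15.8% of all genes tested higher. The adjusted p-values of the 6 called genes ran up to 0.139 over these 6 fits. Testing without the filter on low values also ended all 6 calls, with adjusted p-values of 0.0645 to 0.0870 and 8 genes at an unadjusted p under 0.05. The calls over all genes without the filter are not given here. CD44 KO replicate 2 was the lowest of its group for 9 of the 10 genes, Mme being the exception. FPKM totals ran from 374600 to 416532 in CD44 KO and from 344060 to 373866 in WT UIRI libraries, so every CD44 KO total was the higher. Rescaling every library to the same FPKM total moved the median of all genes to -0.10. It moved the calls over all genes to 215 higher and 470 lower, against 648 and 353, and left 4 of the 10 genes called.

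**Figure D3:**
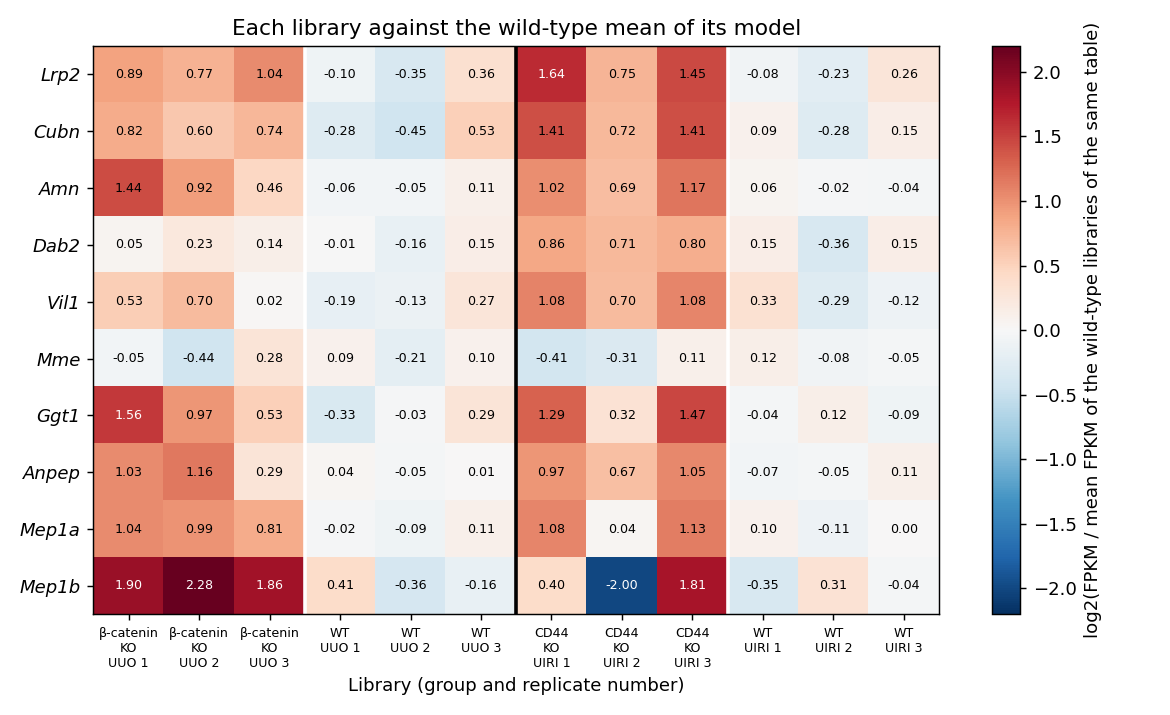
Log2 of each library's FPKM over the mean FPKM of the WT libraries of the same table, by gene (rows) and library (columns, with the group and replicate number), in red above and blue below that mean. β-catenin KO replicate 3 is low for Amn (0.46), Vil1 (0.02) and Anpep (0.29), and CD44 KO replicate 2 is low for Mep1a (0.04) and Mep1b (-2.00).

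Lrp2 and Amn were called higher in both KO groups. The difference between the KO effects was tested in 1 fit of all 12 libraries, as the β-catenin KO effect after UUO minus the CD44 KO effect after UIRI. None of the 10 genes passed that test in limma (0 at an adjusted p under 0.05, 1 at an unadjusted p under 0.05), and voom on reads recovered from the FPKM also called 0. Of all 16193 genes tested, 0.00618% were called and 13.6% had an unadjusted p under 0.05. The gene of the 10 at an unadjusted p under 0.05 was Dab2, at -0.65 (95% interval -1.07 to -0.22, unadjusted p = 0.00659 and adjusted p = 0.217 from limma). Mep1b had the largest difference, 1.55, with an interval that reaches 0 (-0.04 to 3.14, adjusted p = 0.379). Amn and Ggt1 had differences of -0.02 (95% interval -0.66 to 0.62) and 0.01 (-0.96 to 0.97), which leave room for unequal effects.

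Ratios between members within a library do not depend on the scaling of that library. The 5 ratios given here were compared in each model by an exact two-sided permutation test, in which 3 against 3 kidneys cannot give a p under 0.1, and p-values were adjusted over all 10 tests. After UUO the log2 ratio of Dab2 to Lrp2 was 0.23, 0.52 and 0.15 in β-catenin KO kidneys, against 1.16, 1.25 and 0.86 in WT kidneys (difference -0.79, exact p = 0.1, adjusted 0.333). This ratio was lower in every β-catenin KO kidney than in any WT kidney, and in CD44 KO kidneys it was -0.12, 0.63 and 0.02, against 0.90, 0.54 and 0.56 in WT kidneys (difference -0.49, exact p = 0.3). After UUO the log2 ratio of Mep1a to Mep1b was 4.30, 3.87 and 4.12 in KO kidneys, against 4.73, 5.44 and 5.44 in WT kidneys (difference -1.10, exact p = 0.1, adjusted 0.333). After UIRI the same ratio was 5.82, 7.19 and 4.47 in CD44 KO kidneys, against 5.59, 4.72 and 5.19 in WT kidneys, and the groups overlapped (exact p = 0.6). The log2 ratio of Anpep to Mme was 1.55, 1.15 and 1.11 in CD44 KO kidneys, against -0.02, 0.21 and 0.33 in WT kidneys (difference 1.10, exact p = 0.1, adjusted 0.333). After UUO the difference in that ratio was 0.89 (exact p = 0.2). The ratio of Lrp2 to Cubn differed by 0.15 after UUO (exact p = 0.5) and 0.11 after UIRI (exact p = 0.6), and that of Amn to Cubn by 0.16 (exact p = 0.6) and -0.24 (exact p = 0.2). In these 4 comparisons the KO and WT kidneys overlapped.

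FPKM is per gene length, so levels can be compared between genes of a library. Mep1a had the highest FPKM of the 10 genes in 12 of 12 libraries, Ggt1 was second in 10, and Mep1b was the lowest in 10. Across the 4 groups, as a description over separately scaled tables, mean FPKM of Mep1a was 242 ± 19.5 in β-catenin KO UUO, 200 ± 72.9 in CD44 KO UIRI, 125 ± 8.89 in WT UUO and 112 ± 8.42 in WT UIRI kidneys (SD, n = 3 each), with each neighbour in that order overlapping. Lrp2 followed the same order, at 54.3 ± 5.24, 50.1 ± 14.8, 29.0 ± 7.39 and 19.9 ± 3.58 FPKM, again with overlapping neighbours. Cubn, Anpep and Mep1b had this order too, but β-catenin KO UUO and CD44 KO UIRI kidneys did not overlap for Cubn (18.5 ± 1.43 and 13.4 ± 3.40 FPKM) or for Mep1b (14.2 ± 2.41 and 5.38 ± 5.27 FPKM). Anpep means were 27.5 ± 8.09, 23.0 ± 3.12, 14.996 ± 0.474 and 12.3 ± 0.822 FPKM, and its overlap was between the KO groups.

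For Amn, Ggt1 and Vil1 the CD44 KO UIRI kidneys came first, at 111 ± 18.4, 152 ± 56.5 and 72.4 ± 10.4 FPKM, overlapping the β-catenin KO UUO kidneys at 88.2 ± 29.9, 129 ± 46.8 and 55.1 ± 12.7 FPKM. WT UIRI kidneys had 56.8 ± 2.30 FPKM of Amn and WT UUO kidneys 44.3 ± 2.91, without overlap. Ggt1 was at 70.4 ± 5.52 FPKM in WT UIRI and 60.8 ± 12.9 FPKM in WT UUO kidneys, and Vil1 at 37.1 ± 8.58 FPKM in WT UIRI and 40.4 ± 7.26 FPKM in WT UUO kidneys, both with overlap. Dab2 was ordered otherwise: β-catenin KO UUO 66.9 ± 4.11, WT UUO 60.6 ± 6.55, CD44 KO UIRI 54.8 ± 2.70 and WT UIRI 31.7 ± 6.02 FPKM, and the WT UIRI kidneys stood below all others. Mme means lay between 9.58 ± 1.91 and 13.1 ± 1.55 FPKM, and each neighbour in its order overlapped.

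Kidneys of 1 group also differed in these genes. Deviations of log2 values from the group mean, over the 12 libraries, had a median Pearson r of 0.47 over the 45 pairs of genes (range -0.48 to 0.91), with 42 pairs above 0. The highest r was between the receptors Lrp2 and Cubn (0.91), then between Amn and Ggt1 (0.88) and between the meprin subunits (0.81), and the lowest was between Mme and Anpep. Mep1a followed the mean of the other 9 genes most closely (r = 0.89) and Mme least (r = 0.10). The points share libraries and scaling, and each group gives 3 of them. Averaged over the 10 genes in SD units, the deviation was largest in CD44 KO replicate 2 (-1.45), then in CD44 KO replicate 3 (0.97). No median r of other genes is given here, so these values do not set the 10 genes apart. Among 7693 further protein-coding genes whose mean reached 5 FPKM in each table, Nr1h3 (the oxysterol receptor LXRα, r = 0.96), Glyctk (glycerate kinase, 0.95), Aldh3a2 (fatty aldehyde dehydrogenase, 0.95), Pafah2 (0.94) and Neurl4 (0.94) had deviations most like the mean of the 10 genes over the 12 libraries. They were picked as the highest r of the 7693, a choice that by itself favours high values. A link between them and the 10 genes was not tested.

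The wider apparatus around the 10 genes was described by lists, which were not tested against each other. Their counts are to be read against the shares of all genes tested. In β-catenin KO kidneys 6.21% were called higher and 4.36% lower, and in CD44 KO kidneys 4.02% higher and 2.19% lower. At an unadjusted p under 0.05 in limma, 17.0% of all genes tested were higher and 12.9% lower after UUO. After UIRI these shares were 15.8% and 11.2%. Of 28 genes of the endocytic machinery (clathrin and its adaptors, sorting and recycling genes), 1 was called higher and 0 lower in β-catenin KO kidneys, with a median log2 fold change of 0.11 that turned to -0.10 after rescaling to the same FPKM total. The called gene was Lrpap1, the chaperone of megalin, at 64.1 ± 12.1 FPKM in KO and 35.1 ± 1.80 FPKM in WT kidneys (SD, n = 3 each; log2 fold change 0.83, adjusted p = 0.0236 from limma). In CD44 KO kidneys 2 of the 28 were higher, Ehd1, a recycling ATPase (46.8 ± 5.52 FPKM, against 29.4 ± 2.63 FPKM in WT kidneys, adjusted p = 0.0348), and Ap2a1, a subunit of the clathrin adaptor AP-2 (adjusted p = 0.0453), and the median was 0.18. Rescaling to the same FPKM total left 0 of the 28 called after UIRI, with a median of 0.05. At an unadjusted p under 0.05 in limma, 5 of the 28 were higher and 0 lower after UUO, and 11 higher and 0 lower after UIRI. Leaving out 1 library gave 0 to 4 calls in the UUO comparison, 4 of them without KO replicate 3, and 0 to 5 in the UIRI comparison, 5 of them without CD44 KO replicate 2.

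Of 15 tested genes of brush border structure, 3 were higher and 1 lower in β-catenin KO kidneys (median 0.44), and 8 were higher in CD44 KO kidneys (median 0.54). After rescaling to the same FPKM total, 2 were called higher and 1 lower after UUO, and 4 higher after UIRI. Cdhr2, a cadherin that links microvillus tips, was at 10.9 ± 2.35 FPKM in β-catenin KO and 4.45 ± 0.330 FPKM in WT kidneys (log2 fold change 1.10, adjusted p = 0.0125 from limma). It was also called in CD44 KO kidneys, at 7.63 ± 1.202 FPKM, against 3.65 ± 0.451 FPKM in WT kidneys (0.89, adjusted p = 0.0267). Pdzk1, an apical scaffold of transporters, rose in β-catenin KO kidneys to 70.3 ± 14.6 FPKM, against 28.2 ± 5.52 FPKM in WT kidneys (1.28, adjusted p = 0.0153). Actb, the cytoplasmic actin of all cells, was the lower gene, at 353 ± 37.1 FPKM in β-catenin KO and 601 ± 15.1 FPKM in WT kidneys (-0.77, adjusted p = 0.0255). Of this list, 1 gene was called lower without KO replicate 3 and 0 without any other UUO library. Calls higher in the UUO comparison were 2, 2 and 6 without KO replicate 1, 2 or 3 and 2, 0 and 2 without WT replicate 1, 2 or 3, and those in the UIRI comparison were 9 without CD44 KO replicate 2 and 0 without any of the other 5 libraries.

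Of 15 other brush border enzymes, 3 were higher in β-catenin KO kidneys (Xpnpep2, Treh and Ace) and 4 in CD44 KO kidneys, with none lower. The medians were 0.14, which turned to -0.069 after rescaling, and 0.44. Rescaling left 2 of these enzymes called higher after UUO and 1 after UIRI. In the UUO comparison 9 of the 15 had a positive log2 fold change, and in the UIRI comparison 11. At an unadjusted p under 0.05 in limma, 6 were higher and 2 lower after UUO, and 6 higher and 1 lower after UIRI. Of all genes tested, 12.9% were lower at that limit after UUO and 11.2% after UIRI. Without β-catenin KO replicate 3, 1 was called lower. Treh, the trehalase of the brush border, was at 37.4 ± 12.9 FPKM in β-catenin KO and 12.5 ± 1.41 FPKM in WT kidneys (log2 fold change 1.45, adjusted p = 0.0198 from limma). Ace, angiotensin-converting enzyme, was called in both, at 21.9 ± 5.57 FPKM in β-catenin KO and 11.6 ± 1.09 FPKM in WT kidneys (adjusted p = 0.0392) and at 17.3 ± 4.58 FPKM in CD44 KO and 7.93 ± 1.47 FPKM in WT kidneys (adjusted p = 0.0398). Alpl, tissue-nonspecific alkaline phosphatase, had the smallest p of the list in CD44 KO kidneys, at 105 ± 3.19 FPKM, against 32.1 ± 4.18 FPKM in WT kidneys (1.69, adjusted p = 0.0152). Leaving out 1 library gave 0 to 3 calls higher after UUO, with 0 without KO replicate 1, KO replicate 2 or WT replicate 2 and 1 without WT replicate 1. After UIRI it gave 7 calls without CD44 KO replicate 2, 0 without either other CD44 KO library and 1 without any WT library.

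Markers of the proximal tubule moved with the 10 genes. Of 17 transport markers of this segment, 12 were higher in β-catenin KO kidneys (median 1.13) and 7 in CD44 KO kidneys (median 1.03), with none lower. After rescaling to the same FPKM total, 8 of these markers were called higher after UUO and 6 after UIRI. Their summed FPKM was 1638 to 2101 in β-catenin KO, against 746 to 935 in WT kidneys after UUO, and 1050.0 to 1883 in CD44 KO, against 619 to 697 in WT kidneys after UIRI, the lowest CD44 KO value being that of replicate 2. Slc34a1, the phosphate cotransporter, was at 443 ± 173 FPKM in β-catenin KO and 138 ± 8.89 FPKM in WT kidneys (adjusted p = 0.0181 from limma), and at 390 ± 148 FPKM in CD44 KO and 129 ± 21.9 FPKM in WT kidneys (adjusted p = 0.0362). Of 8 tested regulators of proximal tubule identity, 2 were called higher, 0 lower and 6 had a positive log2 fold change in each model. Rescaling left 2 of these regulators called after UUO and 1 after UIRI. Leaving out 1 library gave 0 calls without β-catenin KO replicate 2 or WT replicate 1 or 2 after UUO, up to 4 without WT replicate 3, and 0 without any UIRI library but CD44 KO replicate 2. Hnf4a, a transcription factor of this list, was at 112 ± 0.372 FPKM in β-catenin KO and 58.1 ± 14.6 FPKM in WT kidneys (adjusted p = 0.0227), and at 128 ± 12.2 FPKM in CD44 KO and 59.4 ± 12.3 FPKM in WT kidneys (adjusted p = 0.0279). In RNA of kidney tissue, fewer cells of a type and less RNA per cell cannot be told apart. Without KO replicate 1, 2 or 3 the transport markers called after UUO were 7, 4 and 13, and without WT replicate 1, 2 or 3 they were 4, 3 and 9. After UIRI they were 0, 12 and 0 without CD44 KO replicate 1, 2 or 3, and 0, 0 and 1 without WT replicate 1, 2 or 3.

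Most macrophage markers and some fibroblast markers were lower in KO kidneys. Of 12 macrophage and monocyte markers, 10 were lower in β-catenin KO and 7 in CD44 KO kidneys (medians -1.08 and -0.84). Their summed FPKM was 610.3 to 706 in β-catenin KO, against 1171 to 1436 in WT kidneys after UUO, and 818 to 1432 in CD44 KO, against 2126 to 2194 in WT kidneys after UIRI. The 1432 was again CD44 KO replicate 2. Adgre1, the macrophage marker F4/80, was at 10.6 ± 1.97 FPKM in β-catenin KO and 33.3 ± 4.85 FPKM in WT kidneys (log2 fold change -1.57, adjusted p = 0.00814 from limma). Fibroblast markers had 4 of 9 lower in β-catenin KO and 2 of 9 lower in CD44 KO kidneys, with summed FPKM of 73.4 to 227 in β-catenin KO, against 224 to 278 in WT, and 132 to 299.7 in CD44 KO, against 257 to 430.3 in WT kidneys. Of 5 tested neutrophil markers 0 were called by limma or voom in either comparison (medians -1.60 and -0.88), with 1 lower after UUO and 4 lower after UIRI at an unadjusted p under 0.05. Without WT UUO replicate 3, which had far the highest neutrophil sum, 4 were tested, 1 was called lower, 1 was positive and the UUO median was -0.33. Of 6 endothelial markers 1 was lower in β-catenin KO kidneys, 0 when any library but KO replicate 3 was left out. In CD44 KO kidneys 0 were called by limma and 1 by voom, with 2 lower at an unadjusted p under 0.05. No marker of these lists was at 0 in every library. The part of these shifts in the values of the 10 genes was not tested. The macrophage markers called lower were 2, 3 and 10 without β-catenin KO replicate 1, 2 or 3, 3, 2 and 9 without WT UUO replicate 1, 2 or 3, 11 without CD44 KO replicate 2 and 0 without any other UIRI library. The fibroblast markers called lower ran between 0 and 5 over the 6 UUO fits, with 0 without WT replicate 1 or 2 and 2 without KO replicate 2 or WT replicate 3, and between 0 and 4 over the UIRI fits, with 4 without CD44 KO replicate 2 and 0 in the others.

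Podocyte markers had 0 of 7 called by limma or voom in either comparison (medians -0.26 and -0.21), with 2 lower at an unadjusted p under 0.05 after UUO and 0 after UIRI. Of 6 thick ascending limb markers, 2 were higher in β-catenin KO kidneys (Cldn10 and Slc12a1, the NKCC2 cotransporter, median 0.78) and 0 were called by limma or voom in CD44 KO kidneys (median -0.38, 1 lower at an unadjusted p under 0.05). That median was -0.12 without WT UIRI replicate 2, whose summed FPKM of these markers was 1273, beside 683 and 641 in the other WT UIRI kidneys. The collecting duct and distal tubule list had 1 of 8 tested genes called after UUO, Aqp2, the vasopressin-regulated water channel, at 288 ± 157 FPKM in β-catenin KO and 101 ± 17.3 FPKM in WT kidneys (adjusted p = 0.0474 from limma). Rescaling to the same FPKM total left 0 of this list called after UUO. Of 10 tubule injury genes, 3 were lower in β-catenin KO kidneys, among them Havcr1, which encodes the injury marker KIM-1, at 419.9 ± 64.3 FPKM in KO and 863 ± 181 FPKM in WT kidneys (adjusted p = 0.0315). The median of the injury list after UUO was -0.44, and 3 of the 10 had a positive log2 fold change. At an unadjusted p under 0.05 in limma, 1 of them was higher and 3 lower. In CD44 KO kidneys 0 of the 10 injury genes were called by limma and 1 by voom (1 higher and 2 lower at an unadjusted p under 0.05), and Havcr1 was at 353 ± 45.3 FPKM, against 269 ± 49.0 FPKM in WT kidneys (adjusted p = 0.183). Calls of these small lists were lost in some fits with 1 library left out: the 2 thick ascending limb calls became 0 without WT UUO replicate 2 and 1 without KO replicate 1, KO replicate 2 or WT replicate 1, the Aqp2 list had 0 without KO replicate 2 or any WT library, and the injury list had 3 calls without KO replicate 3, 1 without WT replicate 1 and 0 in the other 4 fits.

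**Figure D4:**
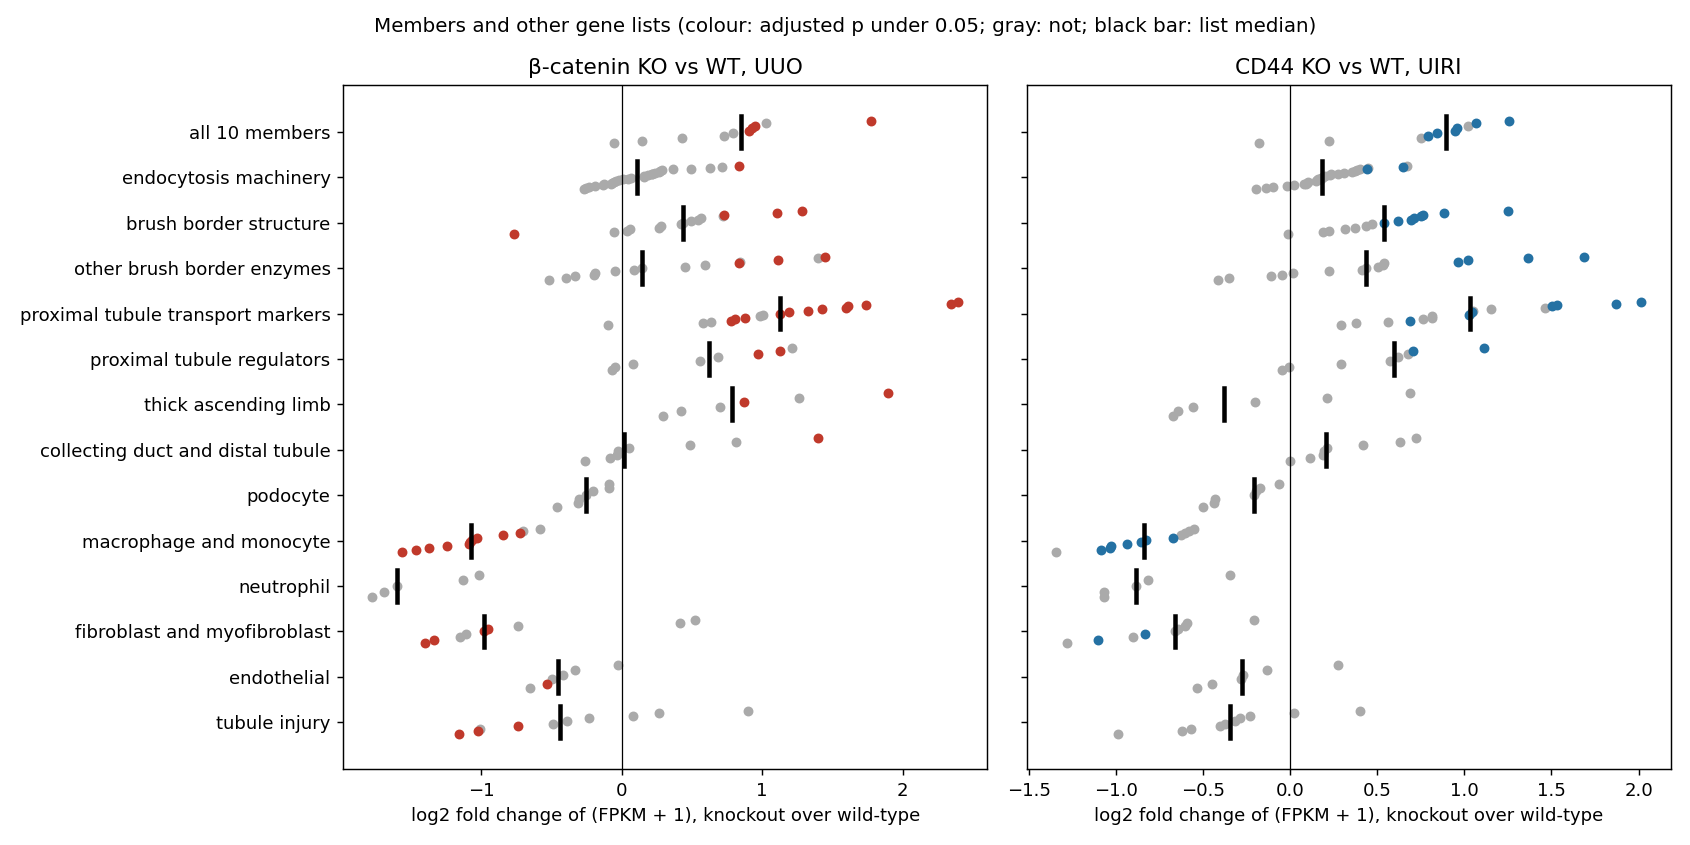
Log2 fold changes of (FPKM + 1), knockout over wild-type, of the 10 genes and of each gene list (rows), for β-catenin KO against WT after UUO (left) and CD44 KO against WT after UIRI (right), with 1 point per gene, in colour for an adjusted p under 0.05, and a black bar at the list median. The 10 genes (medians 0.85 and 0.90) and the proximal tubule transport markers (1.13 and 1.03) lie above 0 and the macrophage markers (-1.08 and -0.84) below 0, while the UUO medians of the endocytosis machinery (0.11), the other brush border enzymes (0.14) and the collecting duct list (0.01) turned below 0 when libraries were rescaled to the same FPKM total.

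Single libraries stood out within the WT UUO group as well. WT UUO replicate 3 was the highest of its group for 8 of the 10 genes and replicate 2 the lowest for 7. Replicate 3 also had a summed FPKM of 567 over 6 neutrophil markers, against 33.5 and 33.3 in the other WT UUO kidneys, and without it 4 of the 10 genes were called, with Cubn (adjusted p = 0.0203) called and Amn (adjusted p = 0.0900) not. Some exon bases are shared with genes on the opposite strand, 2.46% of those of Cubn (Gm13270), 2.87% of those of Dab2 (Gm18888) and 1.38% of those of Vil1 (Usp37), and none of these neighbours was above 3.28 FPKM in any library.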

How the data were processed

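RNA was extracted from kidney with TRIzol and libraries were made with the NEBNext Ultra kit. Per the submitters' notes and the study's methods, the authors used HISAT2 2.0.5 for alignment to GRCm38, featureCounts 1.5.0-p3 for gene counts and DESeq2 1.20.0 for their own group tests. Whether counting used strand is not stated. The authors deposited FPKM, calculated from gene length and read count, in 1 table for each model, with no other column of per-sample values used or left over (0 unmapped). FPKM times gene length gave whole reads for 100% of values (within 0.01 read), with 15940405 to 20737443 reads per library, and the scaling followed median-of-ratios size factors within each table. WT columns were assigned to a model by the KO in the same table.

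KO and WT libraries of a table were fitted by limma (version 3.58.1, R 4.3.3; lmFit and eBayes, trend on) to log2(FPKM + 1), a scale that understates changes of low genes. Genes under a mean of 0.5 FPKM were left out, tests were two-sided, and p-values were adjusted by Benjamini-Hochberg with 0.05 as the limit. The study describes the sequenced UUO samples of a group as separate animals. No source used here says so of the UIRI samples, whose p-values measure only the spread between samples, which may be technical. The difference between the KO effects was fitted over all 12 libraries. Within-library ratios were compared by exact permutation tests. Python 3.11.15, NumPy 2.4.6, SciPy 1.17.1 and pandas 2.3.3 were used for descriptions and Matplotlib 3.10.9 for figures. The fits were also run on simulated reads with known changes, as a check of the code. Those reads had the same dispersion for every gene and no library that stood apart, so they say nothing of how firm the calls are. Intervals cover the spread between libraries.

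The alternatives tried were: each library left out, the replicate block, voom on the recovered reads, limma with no trend, scaling by median of ratios or to an equal total as for TPM, filters at 0 and at 1 FPKM, and pseudocounts of 0.01 and 0.1. The 10 genes and all gene lists were chosen with earlier results of these data known. Genes outside the 10 were named by rule: the targeted genes, of each list up to 4 genes with the smallest p after UUO and up to 2 after UIRI, defining markers of cell types, and the 5 genes most like the 10 in their deviations. Some genes that this rule names are left out of the text. Mep1b has no promoter shown. Promoters are from RefSeq (GRCm38.p6) and overlapping genes from GENCODE.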

Additional observations from a re-analysis of the deposited data

How the results depend on the processing

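The number of the 10 genes called after UUO (4) stayed at 4 with pseudocounts of 0.1 and 0.01 and a filter at 1 FPKM, and was 2 without a filter and after rescaling to the same total. Without a filter, 280 of all 29604 genes tested were called higher and 193 lower after UUO, beside 1004 and 705 of 16166 with it. After UIRI the number of the 10 genes called (6) was 0 without a filter, and the count over all genes in that fit is not given here. Voom on the recovered reads called 6 after UUO, adding Ggt1 and Anpep, and 7 after UIRI, adding Ggt1. Over all genes it called 1232 higher and 1024 lower after UUO, and 941 higher and 711 lower after UIRI. With 1 library left out it ran between 1 and 6 after UUO and between 0 and 8 after UIRI, and it was 0 throughout for the difference between the KO effects. Deviations of same-numbered KO and WT libraries had r of 0.08, 0.20 and 0.04 after UUO and -0.14, -0.03 and -0.03 after UIRI. With 3 libraries a group, whose deviations are tied to their own mean, these values cannot show whether the numbers pair the kidneys. With the replicate block 3 genes were called after UUO and 0 after UIRI, where 8 still had an unadjusted p under 0.05 and 0 genes of the whole table were called. The count over all genes with the block after UUO is not given here.

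The directions that turned round were all of values without a call. Rescaling to the same total gave -0.072 for Dab2 after UUO, -0.077 for Ggt1 in the difference between the KO effects, and UUO medians of -0.10 for the endocytosis machinery, -0.069 for other brush border enzymes and -0.16 for the collecting duct and distal tubule list. With voom the difference for Amn was 0.0023. With 1 library left out, Mme ran between -0.22 and 0.11 after UUO and Mep1b between -0.44 and 0.94 after UIRI. The differences between the KO effects ran between -0.27 and 0.22 for Amn, -0.35 and 0.25 for Ggt1, -0.042 and 0.29 for Mme, -0.22 and 0.20 for Anpep, and -0.16 and 0.38 for Mep1a. The cause of these shifts was not tested. Of 150 fold changes recomputed per model, 127 after UUO and 102 after UIRI kept their direction and their side of the threshold. Precision is limited by the spread among 3 libraries a group and, for Mep1b, by as few as 30 reads in 1 library.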
